A study of Mus musculus with 8 samples.

Results

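The genes that encode major histocompatibility complex (MHC) molecules and the proteins that load, carry and switch them on were examined in synchronized mouse testes with and without germ cell Spdya. Members were the protein-coding rows whose symbol begins with H2-, the mouse MHC name, together with B2m, Cd74, Tap1, Tap2, Tapbp, Nlrc5 and Ciita. This gave 41 genes of the 54532 in the deposited table, of which 22046 are protein-coding. The class I set held 29 genes, the class II set held 11, and H2-Ke6, which keeps an H2 name but encodes a steroid dehydrogenase, was counted apart. By the coordinates of the table, on GRCm38, 37 members lie on chromosome 17, from Tapbp at chr17:33915899-33929288 to H2-M2 at chr17:37480851-37483552. The other 4 are B2m on chromosome 2, Nlrc5 on chromosome 8, Ciita on chromosome 16 and Cd74 on chromosome 18.

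Whole testes were taken from 4 Sync-Spdya fl/fl mice (genotype Spdyafl/fl, the controls) and 4 Sync-Spdya cKO mice (genotype Spdyafl/fl;Ddx4-CreERT2), with 1 library per mouse. All 8 mice carried the floxed Spdya alleles, had spermatogenesis synchronized by blocking and then restoring retinoic acid (RA), and received tamoxifen, which the labels place at RA7.5 and RA8.5. The testes were collected at RA11.5, the stage of mid-late pachytene spermatocytes. Ddx4 drives the inducible Cre in germ cells alone, so the somatic cells of a Sync-Spdya cKO testis keep Spdya, and the controls carry no Cre, so Cre and the loss of Spdya cannot be told apart. The mouse lines were made on a C57BL/6J background, and the labels give the animals' age only as days after RA.

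Class I molecules are made of an MHC heavy chain bound to beta-2-microglobulin (B2m). They show cells' own peptides to CD8 T cells, after the transporter Tap1-Tap2 has brought the peptides into the endoplasmic reticulum and tapasin (Tapbp) has helped to load them. Class II molecules are made of an alpha and a beta chain, are assembled with the invariant chain Cd74, exchange it for a peptide with the help of H2-DM, and are carried mainly by macrophages, dendritic cells and B cells. The coactivator Nlrc5 acts on class I promoters and Ciita on class II promoters, and interferon gamma induces both sets. In the testis, spermatocytes carry little surface class I, and class II is found on some of the resident macrophages.

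The promoters of these genes share short elements, and 5 stretches are printed. Those of B2m, H2-K1 and H2-D1 belong to genes for the chains of classical class I molecules. The others are those of H2-Q10, whose lowest libraries were control 1 and cKO 1, and of a class II chain. Each stretch is the 190 bases before the start of a RefSeq transcript (GRCm38.p6), 5′ to 3′ on the gene's own strand. Capitals mark 4 motifs searched on both strands: the interferon regulatory factor core AANNGAAA, the CCAAT box ATTGG, the core GGGNNTTCC of enhancer A, an NF-kappa-B type element, and the core TGACG of the cyclic AMP element. Of the 32851 promoter windows of 300 bases, 23.9% hold the first, 37.4% the second, 5.82% the third and 20.8% the fourth.
B2m, chr2:122147497-122147686, plus strand: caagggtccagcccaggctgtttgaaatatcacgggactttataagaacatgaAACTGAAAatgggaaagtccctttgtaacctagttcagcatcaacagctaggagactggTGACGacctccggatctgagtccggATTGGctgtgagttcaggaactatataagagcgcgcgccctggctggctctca
H2-K1, chr17:34000348-34000537, minus strand: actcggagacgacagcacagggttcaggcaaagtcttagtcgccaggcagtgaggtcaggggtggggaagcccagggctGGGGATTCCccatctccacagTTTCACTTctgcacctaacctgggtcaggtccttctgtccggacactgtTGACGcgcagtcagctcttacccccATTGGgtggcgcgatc
H2-D1, chr17:35262904-35263093, plus strand: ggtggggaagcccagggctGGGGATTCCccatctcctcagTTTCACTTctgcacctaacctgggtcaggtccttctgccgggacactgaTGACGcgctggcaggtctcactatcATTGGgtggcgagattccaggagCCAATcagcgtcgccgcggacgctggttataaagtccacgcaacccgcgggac
H2-Q10, chr17:35469899-35470088, plus strand: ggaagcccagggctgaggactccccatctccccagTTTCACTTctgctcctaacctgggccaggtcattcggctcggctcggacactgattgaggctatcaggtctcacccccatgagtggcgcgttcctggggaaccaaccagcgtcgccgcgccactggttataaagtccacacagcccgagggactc
H2-Aa, chr17:34287824-34288013, minus strand: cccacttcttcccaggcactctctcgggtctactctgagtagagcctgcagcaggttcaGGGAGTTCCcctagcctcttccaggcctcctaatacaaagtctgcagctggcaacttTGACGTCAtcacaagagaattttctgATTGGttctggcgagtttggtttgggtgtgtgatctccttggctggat

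H2-K1 and H2-D1, the classical class I heavy chains of this strain, held all 4 motifs in the same order. H2-Q10, a secreted class I heavy chain best known from liver, held the interferon regulatory factor core and none of the other 3 in the searched window. H2-T23, Tap1 and H2-Q6 had control 1, control 2 and cKO 1 as their 3 highest libraries, whereas B2m, H2-K1, H2-D1 and H2-Q10 did not. H2-T23 and Tap1, like H2-Q10, lacked the enhancer A core, and H2-Q6 held it. Whether motifs go with a gene's order of libraries was not tested. B2m held all but the enhancer A core. In H2-Aa, the class II alpha chain, the cyclic AMP element core was read on both strands of a single palindrome, TGACGTCA. Across members, 34 of 41 had a promoter entry. Among the 11 tested class I members with an entry, 9 held the interferon regulatory factor core, 10 the CCAAT box, 4 the enhancer A core and 7 the cyclic AMP element core. Among the 4 tested class II members with one, the numbers were 2, 4, 1 and 1. The H2-D1 stretch lies inside the gene interval of the table, which begins further upstream. A match is a run of letters, and binding of a factor was not measured.

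Values are FPKM, fragments per kilobase of gene length relative to a scaled library size, and the libraries held 13978342 to 19583091 fragments on genes. Control 1 stood apart, with 0.464% of its fragments on mitochondrial genes against 2.20% to 3.74% in the other 7 libraries. Spdya itself was at 19.7 to 23.8 FPKM in controls and 17.7 to 30.5 in Sync-Spdya cKO testes, so the whole-gene level did not separate the groups. In the study the deletion takes out a single exon, which a whole-gene level does not single out. The paper reports SpdyA protein missing from nearly all synchronized Sync-Spdya cKO pachytene cells slightly before this stage. For a gene to be tested, its mean had to exceed 1 FPKM in each group, which 19 members did, 13 of class I and 6 of class II. Another 8 had a mean above 0.1 over all libraries and the remaining 14 lay below that. In bulk samples, fewer cells of a type and less RNA per cell cannot be told apart.

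No tested member passed the test between the genotypes. With limma on log2(FPKM + 0.1), 0 of the 19 had a Benjamini-Hochberg adjusted p below 0.05 with a fold change above 2-fold, beside 0.0165% of the 12141 genes tested, and 0 had an adjusted p below 0.05 at any size, also beside 0.0165%. The lowest adjusted p of a member was 0.465. At an unadjusted p below 0.05 the members also counted 0 in each direction, where 5.89% of all genes were higher and 5% lower in Sync-Spdya cKO testes. Values without overlap between the groups occurred in 0 of the 19, beside 3.64% of genes that were higher without overlap and 2.59% that were lower. The estimates were positive for 16 of the 19, and 52.0% of all genes tested had a positive estimate. Without control 3 this was 11 of the 19, beside 51.0% of all genes, and without control 4 it was 13, beside 48.0%. The count at the unadjusted threshold moved with single control libraries. It was 5 without control 1, and these were H2-D1, H2-Q4, Cd74 and H2-Ab1, higher, and H2-DMb1, lower, while 9.73% of all genes were higher and 5.90% lower in that fit. It was also 5 without control 2, namely B2m, H2-K1, H2-D1, H2-Q4 and H2-T22, all higher, beside 6.14% of all genes that were higher. The lowest adjusted p among those named in these 2 fits was 0.203. Leaving out 1 library moved the estimate by over 1.5 times for 16 of the 19 members, all but H2-D1, H2-T24 and H2-DMb1.

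**Figure D1:**
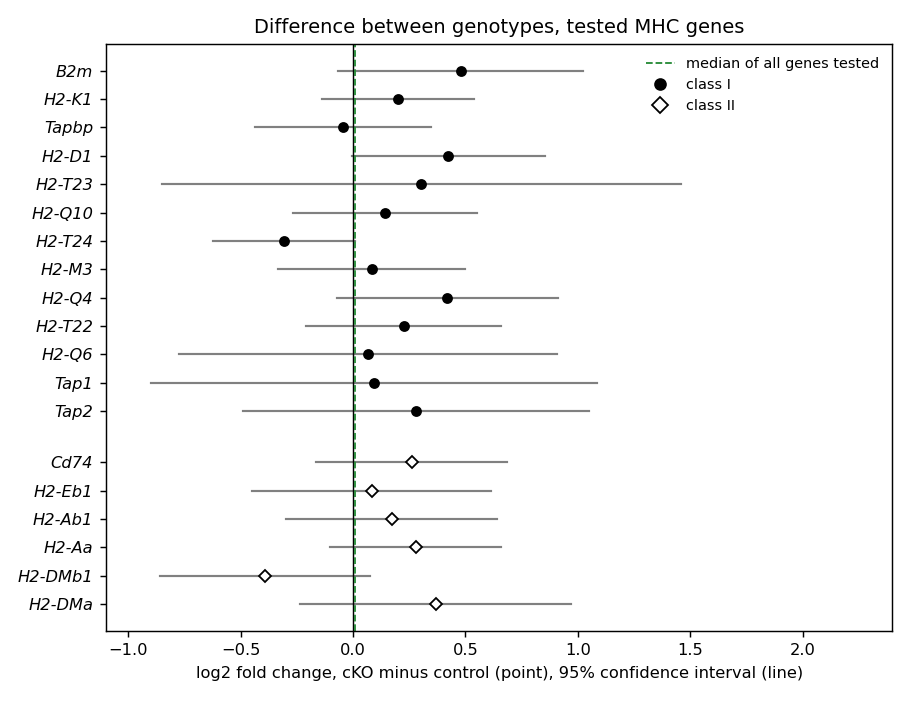
The log2 fold change of each of the 19 tested MHC genes, Sync-Spdya cKO minus control (points), with its 95% confidence interval (lines), 13 class I genes above and 6 class II genes below. Every interval includes 0, the intervals of H2-T23, Tap1 and H2-Q6 are the widest, and the dashed line is the median of the 12141 genes tested, 0.01.

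B2m, the light chain that every class I heavy chain needs, was the most abundant member. Its level was 39.1, 95.8, 45.5 and 63.1 FPKM in controls 1 to 4, and 73.7, 72.7, 87.2 and 86.8 in Sync-Spdya cKO 1 to 4. The control range enclosed all the Sync-Spdya cKO values. Its log2 fold change was 0.48 (SE 0.24, limma adjusted p = 0.537). Leaving out control 2, the highest library, brought it to 0.73 (unadjusted p = 0.00271, adjusted p = 0.244), and leaving out control 1, the lowest, to 0.30 (unadjusted p = 0.193). B2m, a short gene, rested on 441 to 1494 fragments per library.

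By mean over all libraries H2-K1, a classical heavy chain, came next, then Tapbp, then H2-D1, the other classical heavy chain. H2-K1, at chr17:33996017-34000333, was at 54.9, 70.8, 53.9 and 41.2 FPKM in controls and at 62.5, 64.7, 63.2 and 59.0 in Sync-Spdya cKO testes. H2-D1, at chr17:35262730-35267499, was at 23.1, 23.8, 13.8 and 14.2 FPKM in controls and at 26.4, 23.1, 21.6 and 26.9 in Sync-Spdya cKO testes. Both genes were lowest in control 3 or control 4, and the groups overlapped in both. H2-D1 had a log2 fold change of 0.42 (SE 0.19, 95% confidence interval -0.0039 to 0.85 by limma), with an unadjusted p of 0.0517 and an adjusted p of 0.465. For H2-K1 it was 0.20 (SE 0.15, adjusted p = 0.693), with 0.33 without control 2 and 0.07 without control 4. H2-K1 and H2-D1 together made up 65.0% to 72.9% of the summed FPKM of the 24 H2 class I heavy chain genes in the 8 libraries. Of the 150-base windows in the annotated transcripts of H2-D1, 1.35% also occurred in another gene of the region, and of those of H2-K1, 0%.

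The peptide loading genes ranged widely in level. Tapbp, which bridges the transporter and the empty class I molecule, was at 83.5, 60.8, 51.4 and 44.2 FPKM in controls and at 58.6, 55.0, 55.0 and 57.5 in Sync-Spdya cKO testes. This gave a log2 fold change of -0.04 (SE 0.18), which turned to 0.13 without control 1, the library with the highest value. Tap1, a subunit of the transporter, was at 4.70, 4.07, 1.80 and 0.958 FPKM in controls and at 4.02, 2.32, 2.53 and 1.88 in Sync-Spdya cKO testes. Its partner Tap2 was at 2.18, 1.23, 0.508 and 0.936 FPKM in controls and at 1.45, 1.11, 1.33 and 1.45 in Sync-Spdya cKO testes. Both transporter genes were highest in control 1 and lowest in control 4 or control 3, a span of 4.90-fold for Tap1 and 4.29-fold for Tap2. Their log2 fold changes were 0.09 (SE 0.45) and 0.28 (SE 0.35), with limma adjusted p-values of 0.958 and 0.819. The estimate of Tap1 changed sign when control 3, control 4 or cKO 1 was left out, and that of Tap2 when control 3 was.

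Among the nonclassical heavy chains, H2-T23, which encodes Qa-1, the ligand of CD94-NKG2 receptors on natural killer cells, varied most. It was at 12.4, 11.7, 4.34 and 1.88 FPKM in controls and at 10.5, 6.63, 5.91 and 6.95 in Sync-Spdya cKO testes. The controls alone spanned 6.59-fold and enclosed every Sync-Spdya cKO value. The SD within groups was 0.93 on the log2 scale, and only 0.445% of the 12141 genes tested had a larger one, while the median gene was at 0.21. The log2 fold change of 0.30 (SE 0.52, limma adjusted p = 0.874) became -0.23 without control 4.

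H2-Q6, a Qa-2 type heavy chain, showed a like order of libraries. It was at 5.09, 3.52, 1.47 and 1.84 FPKM in controls and at 4.58, 2.10, 2.30 and 2.68 in Sync-Spdya cKO testes, and 1.80% of genes had a larger SD within groups. Controls 1 and 2 and cKO 1 were the 3 highest libraries for H2-T23, Tap1 and H2-Q6 alike. H2-Q6 had a log2 fold change of 0.07 (SE 0.38), which turned to -0.20 without control 3, to -0.10 without control 4 and to -0.17 without cKO 1. Of its transcript windows, 5.99% also occurred in H2-Q7, so fragments could have been split between these copies. H2-Q7 itself, at 0.585 to 1.34 FPKM in controls and 0.904 to 1.31 in Sync-Spdya cKO testes, lay just under the filter.

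That order did not hold for B2m, H2-K1 or H2-D1, nor for H2-Q10. H2-Q10 was at 5.05, 6.89, 6.80 and 8.10 FPKM in controls and at 5.48, 7.73, 7.24 and 9.36 in Sync-Spdya cKO testes. Control 1 and cKO 1, which were high for H2-T23, were its lowest libraries, and control 4, which was low for H2-T23, was its second highest. H2-Q10 had a log2 fold change of 0.14 (SE 0.18, limma adjusted p = 0.826). Of its windows, 3.43% were shared with another gene, mostly H2-Q7.

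H2-T24, a nonclassical gene of the T region, was 1 of 3 tested members with a negative estimate, with Tapbp and H2-DMb1. It was at 5.94, 5.03, 5.07 and 4.75 FPKM in controls and at 4.56, 5.11, 3.70 and 3.51 in Sync-Spdya cKO testes. In 3 of the 4 Sync-Spdya cKO libraries it was below every control, and cKO 2 was within the controls. Its estimate was -0.31 on the log2 scale (SE 0.14, 95% confidence interval -0.62 to 0.01 by limma), with an unadjusted p of 0.0568 and an adjusted p of 0.482.

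H2-Q4, H2-M3, which presents formylated peptides, and H2-T22, a ligand of some gamma-delta T cells, were the remaining class I members tested. H2-Q4 was at 3.73, 4.06, 1.95 and 3.06 FPKM in controls and at 5.03, 3.86, 3.49 and 4.42 in Sync-Spdya cKO testes, with a log2 fold change of 0.42 (SE 0.22, limma adjusted p = 0.544). H2-M3 ranged from 2.76 to 4.67 FPKM in controls and from 3.26 to 4.59 in Sync-Spdya cKO testes. H2-T22 ranged from 2.04 to 3.93 FPKM in controls and from 2.95 to 3.79 in Sync-Spdya cKO testes. All 3 genes were lowest in control 3, and the groups overlapped in each. H2-M3 and H2-T22 had log2 fold changes of 0.08 (SE 0.19) and 0.23 (SE 0.19), and that of H2-M3 turned to -0.065 without control 3.

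**Figure D2:**
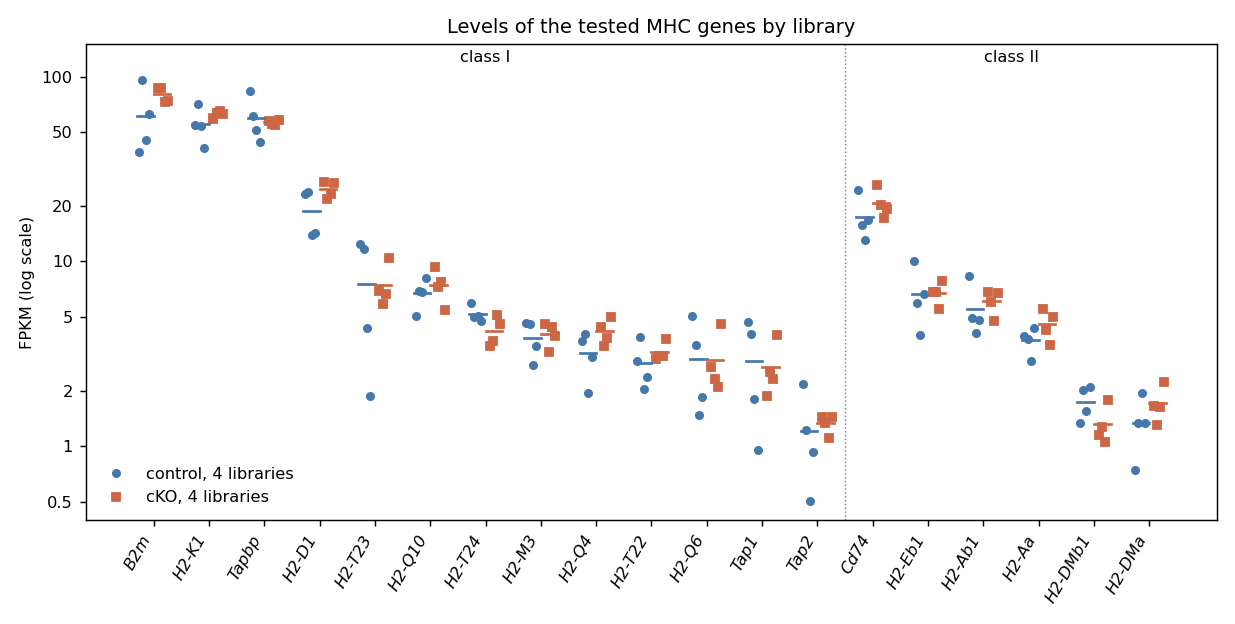
FPKM of the 19 tested MHC genes on a log scale in the 4 control libraries (circles) and the 4 Sync-Spdya cKO libraries (squares), with each group's mean as a line. B2m, H2-K1 and Tapbp sit near 50 to 100 FPKM, the groups overlap for all 19 genes, and the controls are spread more widely than the Sync-Spdya cKO libraries for H2-T23, Tap1 and Tap2.

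The class II genes were lower than B2m, H2-K1 and Tapbp. Cd74, the invariant chain, was at 24.3, 15.7, 13.0 and 16.7 FPKM in controls and at 19.2, 17.3, 20.2 and 25.8 in Sync-Spdya cKO testes. Its log2 fold change was 0.26 (SE 0.19, limma adjusted p = 0.676), with 0.43 without control 1, 0.13 without control 3 and 0.15 without cKO 4. H2-Ab1, the beta chain of the I-A molecule, was at 8.34, 4.95, 4.10 and 4.81 FPKM in controls and at 6.71, 4.78, 6.05 and 6.84 in Sync-Spdya cKO testes. H2-Aa, its alpha chain partner, was at 3.95, 3.80, 2.90 and 4.36 FPKM in controls and at 5.04, 3.54, 4.24 and 5.53 in Sync-Spdya cKO testes. These 3 genes of the I-A pathway were each lowest in control 3, and the groups overlapped for all of them. The log2 fold changes of H2-Ab1 and H2-Aa were 0.17 (SE 0.21) and 0.28 (SE 0.17), with limma adjusted p-values of 0.819 and 0.612. The first became 0.38 without control 1 and 0.05 without control 3, and the second 0.16 without control 3.

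H2-Eb1 encodes the beta chain of I-E, whose alpha chain is not made in C57BL/6 mice because of a promoter deletion. It was nonetheless the second most abundant class II member by mean, at 10.1, 5.96, 4.00 and 6.65 FPKM in controls and at 7.84, 5.55, 6.81 and 6.81 in Sync-Spdya cKO testes. Its mean was 6.67 ± 2.52 FPKM in controls and 6.76 ± 0.936 in Sync-Spdya cKO testes (SD, n = 4 each), a difference within the spread of either group (log2 fold change 0.08, SE 0.24). The estimate turned to -0.13 without control 3. H2-Eb1 and H2-Ab1 lay within each other's spread in controls, where H2-Ab1 averaged 5.55 ± 1.90 FPKM.

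The peptide editors were low, and the estimates of the H2-DM chains differed in sign. H2-DMa, the alpha chain of H2-DM, was at 0.744, 1.34, 1.95 and 1.34 FPKM in controls and at 2.23, 1.64, 1.30 and 1.65 in Sync-Spdya cKO testes. H2-DMb1, a beta chain, was at 1.34, 2.01, 1.55 and 2.10 FPKM in controls and at 1.77, 1.05, 1.28 and 1.15 in Sync-Spdya cKO testes. In 3 of the 4 Sync-Spdya cKO libraries H2-DMb1 was below every control. On the log2 scale the fold change was -0.39 for H2-DMb1 (SE 0.21, limma adjusted p = 0.552) and 0.37 for H2-DMa (SE 0.27, adjusted p = 0.682). These values rested on 25 to 54 fragments per library for H2-DMb1 and 16 to 71 for H2-DMa. H2-DMb2, the neighbouring beta chain gene that shared 4.14% of its windows with H2-DMb1, ranged from 0.0748 to 0.446 FPKM in controls and from 0.0732 to 0.208 in Sync-Spdya cKO testes. With genes of a mean above 0.1 FPKM, its log2 fold change was -0.69 (SE 0.39, limma adjusted p = 0.574) on 2 to 13 fragments per library. The whole H2-DM and H2-O group summed to 3.45 ± 0.615 FPKM in controls and 3.20 ± 0.597 in Sync-Spdya cKO testes.

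The coactivators lay under the main filter. Nlrc5 was at 0.539, 1.58, 0.354 and 0.287 FPKM in controls and at 0.887, 0.560, 0.391 and 0.645 in Sync-Spdya cKO testes. Control 2 was the highest library and control 4 the lowest, a span of 5.51-fold, and the log2 fold change was 0.08 (SE 0.43). Ciita was at 0.112, 0.139, 0.121 and 0.141 FPKM in controls and at 0.0865, 0.0920, 0.0995 and 0.136 in Sync-Spdya cKO testes. It was below every control in 3 of the 4 Sync-Spdya cKO libraries, on 14 to 24 fragments per library, with a log2 fold change of -0.17 (SE 0.23, limma adjusted p = 0.833).

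Between the filters lay also H2-M10.2, a gene of the M10 family known from vomeronasal neurons, at 0.371 to 0.932 FPKM over the 8 libraries, H2-Q2 at 0.175 to 0.644 and H2-M5 at 0.143 to 0.397. H2-Ke6 was at 0.0498 to 0.245 FPKM, and 54.5% of its transcript windows belong also to the overlapping gene model Gm20427, so its level is uncertain. With a mean above 0.1 FPKM as the filter, the 8 members of this range had limma adjusted p-values from 0.574 to 0.961. Of the 14 members below it, H2-Eb2, H2-Oa, H2-Ob, H2-Q1, H2-M2, H2-M9, H2-M10.1, H2-M10.6 and H2-T3 had at most 4 fragments in a library. The other 5, H2-M1, H2-M10.3, H2-M10.4, H2-M10.5 and H2-M11, had 0 fragments in all 8 libraries. A count of 0 allows up to 3 fragments, which for these genes is a level of at most 0.144 to 0.228 FPKM in the library where it is highest, as far as counting error goes.

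Set side by side, the medians of the classes were as follows. The median log2 fold change was 0.20 over the 13 tested class I members and 0.22 over the 6 tested class II members, beside 0.01 over all genes tested. The difference between the class medians was -0.02, while the same difference taken library by library had an SD of 0.23 within groups. The medians moved with single libraries: both were 0.09 without control 3, class I was 0.07 without control 4 and 0.34 without control 2, and the difference ranged from -0.12 to 0.16 over the 8 libraries left out. Summed over its 29 genes, class I reached 250.1, 299.9, 193.1 and 193.2 FPKM in controls and 267.7, 254.9, 262.9 and 271.2 in Sync-Spdya cKO testes. Over its 11 genes, class II reached 49.3, 34.5, 27.8 and 36.6 FPKM in controls and 43.0, 34.2, 40.2 and 48.2 in Sync-Spdya cKO testes. Both sums overlapped between the groups, and the class I sums of all 4 Sync-Spdya cKO testes lay between those of control 1 and control 2. The ratio of class I to class II was 6.50 ± 1.69 in controls and 6.46 ± 0.760 in Sync-Spdya cKO testes (SD, n = 4 each).

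Single libraries held the extremes of many members. Control 3 or control 4 was the lowest of the 8 libraries for 14 of the 19 tested members, beside 38.4% of all genes tested, and control 3 alone for 10, beside 14.6%. Control 1 was the highest for 9 of the 19, beside 34.2%. The SD within groups exceeded the median over all genes tested for 18 of the 19 members, H2-T24 being the exception. On the log2 scale the median SD of the members was 0.43 in controls and 0.23 in Sync-Spdya cKO testes. Among all genes tested these medians were 0.25 and 0.13, and the control SD was the larger for 15 of 19 members and for 81.3% of all genes.

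**Figure D3:**
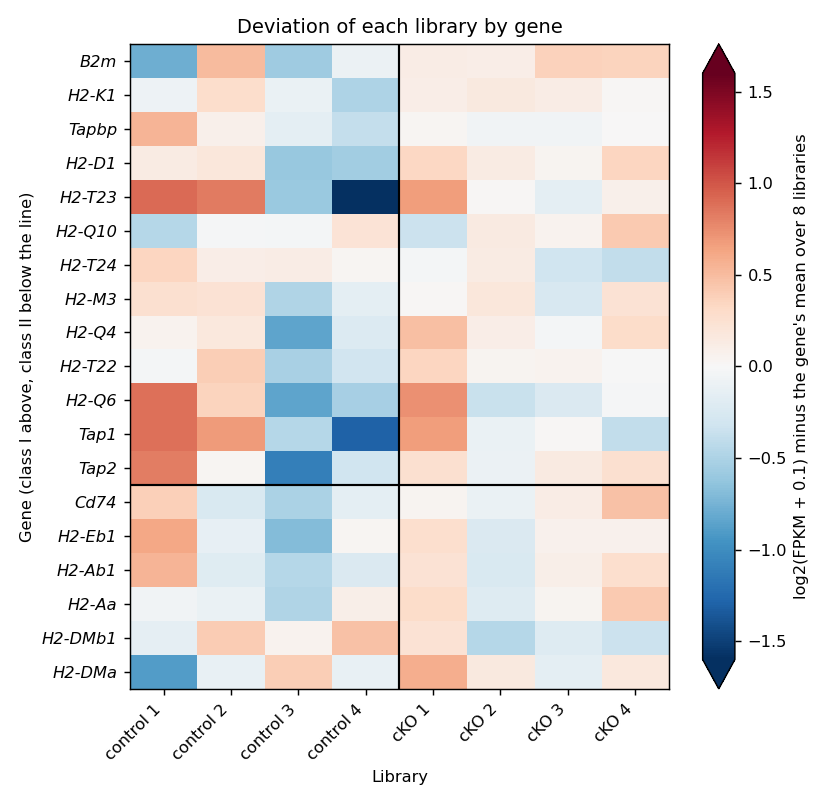
Colour gives the deviation of each library from the gene's mean over 8 libraries, on the log2(FPKM + 0.1) scale, for 13 class I genes above and 6 class II genes below the horizontal line, with controls left and Sync-Spdya cKO testes right of the vertical line. Control 3 is blue (low) for most genes of both classes, and H2-T23, Tap1 and H2-Q6 are red (high) in control 1, control 2 and cKO 1.

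Genes that act around these members were described from lists, with the same background of 5.89% of genes higher and 5% lower at the unadjusted threshold. Of 11 genes of class I loading and peptide supply, 9 were tested and 0 passed an unadjusted p of 0.05. The smallest p of the list belonged to the proteasome activator Psme2 (log2 fold change 0.21, unadjusted p = 0.222), and the peptide trimming enzyme Erap1 was at 5.32 ± 1.04 FPKM in controls and 6.07 ± 0.836 in Sync-Spdya cKO testes (n = 4 each). The immunoproteasome subunit Psmb8, under the filter, was at 0.502, 1.27, 0.351 and 0.245 FPKM in controls and at 0.980, 0.458, 0.672 and 0.624 in Sync-Spdya cKO testes. Its highest and lowest libraries, control 2 and control 4, were those of Nlrc5, and Psmb8 was named after its values were seen. Of the 8 genes of the MHC promoter complex, all were tested and 0 passed, the nearest being the NF-Y subunit Nfyc (log2 fold change 0.39, unadjusted p = 0.0585). The 8 had 6 positive estimates and a median of 0.04.

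Of 9 genes of interferon gamma signalling, 8 were tested and 1 was higher at the unadjusted threshold, the receptor chain Ifngr1, at 7.26 ± 1.12 FPKM in controls and 9.14 ± 0.734 in Sync-Spdya cKO testes (log2 fold change 0.34, unadjusted p = 0.0208, limma adjusted p = 0.369). Estimates were positive for 7 of the 8, and the list summed to 82.6 to 99.8 FPKM in controls and 101.5 to 110.8 in Sync-Spdya cKO testes, without overlap. The cytokine gene Ifng itself was at 0 in 7 libraries and at 0.0398 FPKM in cKO 1.

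Of 8 class I-like genes outside the H2 names, 4 were tested and 1 was higher, Fcgrt, the neonatal Fc receptor, which pairs with B2m (log2 fold change 0.57, unadjusted p = 0.0425, limma adjusted p = 0.447). It was at 8.93, 5.22, 3.38 and 5.46 FPKM in controls and at 8.59, 7.42, 7.08 and 9.61 in Sync-Spdya cKO testes. Summed over the 7 genes in the table, this list ranged from 10.3 to 17.5 FPKM in controls and from 17.7 to 22.9 in Sync-Spdya cKO testes, without overlap. Of 8 genes of the class II compartment, 5 were tested and 0 passed, the nearest being the protease Ctsl at 104.3 ± 16.9 FPKM in controls and 128.9 ± 16.5 in Sync-Spdya cKO testes (log2 fold change 0.31, unadjusted p = 0.0631).

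Markers of macrophages, some of which carry class II, were set beside these values. Of 12 macrophage markers, 10 were tested and 6 were higher at the unadjusted threshold, 0 of them at an adjusted p below 0.05 (lowest 0.229). C1qc, a complement subunit, was at 2.13, 2.49, 1.29 and 2.28 FPKM in controls and at 2.99, 3.73, 3.26 and 5.49 in Sync-Spdya cKO testes (log2 fold change 0.88, SE 0.24). Csf1r, the receptor of the macrophage growth factor, was at 1.25, 1.68, 1.18 and 2.41 FPKM in controls and at 2.50, 2.49, 2.54 and 3.13 in Sync-Spdya cKO testes (log2 fold change 0.72, SE 0.22). Neither gene overlapped between the groups, which beside the 3.64% of all genes held for 3 of the 10. The summed markers ranged from 34.5 to 46.7 FPKM in controls and from 52.1 to 67.9 in Sync-Spdya cKO testes, also without overlap, whereas the class II sums overlapped. The part of macrophage RNA in the class I and class II values was not tested.

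Many markers of other antigen-presenting cells were near the limit of detection. The dendritic cell markers summed to 3.00 to 5.20 FPKM in controls and 3.58 to 4.41 in Sync-Spdya cKO testes, mostly from Zbtb46, while Xcr1 and Clec9a averaged 0.0812 to 0.123 FPKM in the groups and Ccr7 was at 0 in all controls. Of the B cell markers, Cd79a, Cd79b, Ms4a1 and Pax5 averaged at most 0.257 FPKM in either group. The T cell markers summed to 1.18 to 1.80 FPKM in controls and 1.72 to 1.97 in Sync-Spdya cKO testes, of which Lck made up most.

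Markers of other somatic and germ cells were compared in the same way. At the unadjusted threshold, 2 of 6 tested endothelial markers were higher in Sync-Spdya cKO testes (Cdh5 and Pecam1), as were 2 of 3 Leydig cell markers (Hsd3b1 and Lhcgr) and 1 of 3 peritubular myoid markers (Acta2). None of 6 Sertoli cell markers passed. Of 7 pachytene spermatocyte markers, 2 were lower (Ldhc and Piwil1), and of 6 spermatogonia markers 1 was lower (Stra8). Estimates were positive for 0 of the 7 pachytene markers (median log2 fold change -0.20) and for 4 of the 6 spermatogonia markers. They were positive for every tested endothelial, Leydig cell, peritubular myoid and Sertoli cell marker. The spermatogonia markers summed to 192.8 ± 22.3 FPKM in controls and 215.5 ± 5.32 in Sync-Spdya cKO testes, with overlap. The pachytene markers summed to 1506 to 2295 FPKM in controls and 1292 to 1959 in Sync-Spdya cKO testes, and the endothelial markers to 9.16 to 17.1 and 16.0 to 21.0. The 1 spermatid marker tested, of 6, did not pass. No marker of these lists had an adjusted p below 0.05. In the study's single-cell data, from mice pooled slightly later, spermatocytes were a lower and spermatogonia a higher percentage in Sync-Spdya cKO testes. How far a different mix of cells enters the MHC values was not tested.

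**Figure D4:**
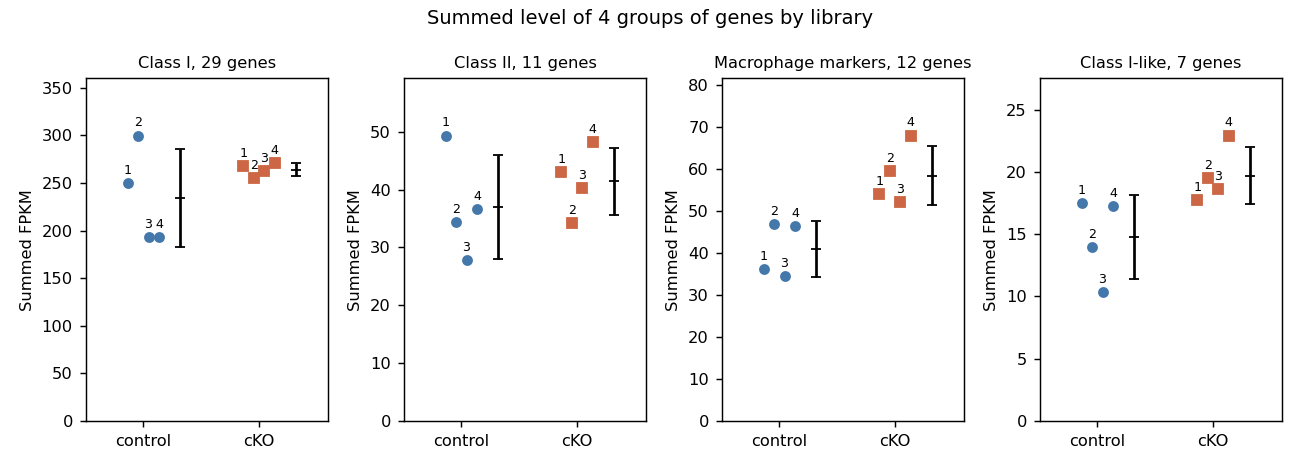
Summed FPKM per library of the 29 class I genes, the 11 class II genes, the 12 macrophage markers and the 7 class I-like genes in the table, with controls as circles, Sync-Spdya cKO testes as squares, replicate numbers above the points, and bars for mean and SD (n = 4). The class I and class II sums overlap between the groups, and the macrophage marker and class I-like sums do not.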

How the data were processed

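Bulk RNA was measured in 8 whole testes, and no value column was left without a sample. The authors deposited FPKM values made by the sequencing company's software from 150-base read pairs. The submitters' processing notes name GRCm38 and mm10, and the aligner and counting tool are not given in the sources used here. The labels name a column kit for the RNA and the study's methods Trizol, and the methods place both tamoxifen injections slightly earlier than the labels. FPKM times gene length gave whole fragments in 100% of values (tolerance 0.02), so depth is known. Replicates differed by more than sampling noise.

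The test was limma 3.58.1 in R 4.3.3 (lmFit, then eBayes with trend) comparing the 4 libraries of each genotype on log2(FPKM + 0.1). No covariate was used, and a protein-coding gene entered if its mean exceeded 1 FPKM in each group. The fit was also run on simulated data with the same spread in both groups. In the real data the controls varied more, so the simulation does not show which changes of the members would be found. A call needed more than a 2-fold change either way and a Benjamini-Hochberg adjusted p below 0.05. Every tested member is named, then those with a mean above 0.1, then the rest by name, and from each list up to 3 genes with the smallest p. Some genes of the lists are not reported here. Members and lists were chosen with earlier results of these data known. Promoters are RefSeq entries, and transcript windows come from GENCODE vM21. Alternatives covered pseudocount, filters, biotypes, centring, weights, trend, voom, a replicate block and each library left out. Python 3.11.15 and matplotlib 3.10.9 drew the figures.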

Additional observations from a re-analysis of the deposited data

Results flagged for a closer look

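H2-T22 in cKO 1, at 3.79 FPKM, stood apart from the other 3 Sync-Spdya cKO libraries, which were at 2.95 to 3.09, its gap to the nearest being 0.831 of the group's range, above Dixon's 95% critical value for 4 samples. It was the only one of 42 groups of 4 libraries (19 tested members and the summed class I and class II levels, in both genotypes) to do so, where chance, which flags about 1 in 20 groups, gives 2.1.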

How the results depend on the processing

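No tested member had an adjusted p below 0.05 under any of the 17 alternatives, of which the lowest adjusted p was 0.122 (H2-DMb1 with array weights), and none was called. The number of members at an unadjusted p below 0.05, which was 0, became 1 with a filter of a mean FPKM above 0.1 over all libraries, 1 with centring on the autosomal median, 2 with array weights (Cd74 and H2-DMb1) and 1 with voom on the recovered fragments, H2-D1 in each of the counts of 1. At this threshold 11.1%, 11.1%, 20.9% and 10.6% of all genes passed in these 4 fits. It was 0 to 5 when 1 library was left out. A replicate block gave 3 (H2-D1, H2-Q4 and H2-T24), beside 14.6% of all genes, but same-numbered libraries deviated together with correlations of 0.0757 to 0.406, below 0.1 for replicate 3, so no pairing of mice by number was assumed. Under the block the calls over all genes went from 2 to 0, and 5 of the 8 libraries correlated best with their own number in the other group. The difference between the class medians moved by less than 0.23, the SD of single libraries within groups, in every alternative. It ranged from -0.15 with array weights to 0.16 without control 2. A difference between groups of 4 libraries varies less than a single library, so this SD is a wide yardstick. Of 323 single estimates, 13 changed sign, in 7 members. With array weights H2-Q6 became -0.036 and Tap1 -0.066, and without control 3 H2-M3 became -0.065 and Tap2 -0.035. With 1 library left out, Tapbp ranged from -0.18 to 0.13, H2-T23 ranged from -0.23 to 0.66, H2-Eb1 ranged from -0.13 to 0.30, H2-M3 ranged from -0.07 to 0.18, H2-Q6 ranged from -0.20 to 0.37, Tap1 ranged from -0.32 to 0.40 and Tap2 ranged from -0.04 to 0.60. The cause of these changes beyond the library removed was not tested. Array weights gave control 1 a weight of 0.161, the lowest, and raised the genes past the adjusted threshold from 2 to 454 of 12141. Depth limits H2-DMb1, H2-DMa and the members under the main filter, which rest on few fragments.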
